A study of Homo sapiens with 9 samples.

Results

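The genes described here are 10 targets and regulators of the transcriptional coactivators YAP and TAZ, out of 27615 genes in the longest gene list of an RNA sequencing study of a breast cancer cell line. They were taken by name from the deposited lists of all 9 libraries, as CTGF (also CCN2), CYR61 (also CCN1), ANKRD1, AMOTL2 and AXL, which are transcribed by YAP and TAZ, YAP1 and WWTR1, which encode YAP and TAZ, and LATS2, AMOTL1 and AJUBA, which act on the pathway. All 10 were listed in all 9 libraries. They were chosen by name with their FPKM and fold changes in these same comparisons already known, so their differences between treatments are given as a description, without p-values. MDA-MB-231, an established human triple-negative breast cancer line, was treated with DMSO (vehicle), rimonabant or TXX-1-10, and 3 libraries were made for each treatment. Rimonabant blocks the cannabinoid receptor CB1. TXX-1-10 was made from it by chemical modification. HPIP is the product of PBXIP1. The study selected the derivative in a screen for loss of both cell viability and the signal of HPIP fused to a fluorescent protein. The study also reports cell cycle arrest in this line under the derivative, and its discussion reports arrest under rimonabant too. Apoptosis was reported under the derivative and was not induced by rimonabant. Whether the sequenced cells were in such a state was not tested. The comparisons ask how each compound moved gene expression against vehicle, and how the derivative differed from its parent. The dose and duration for the sequenced cells are not given in the sources used here, so the compounds are compared as sequenced, not at doses known to match.

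YAP and TAZ have no DNA-binding domain of their own and reach DNA through the TEAD factors. In the Hippo pathway the kinases MST1 and MST2 (genes STK4 and STK3) activate LATS1 and LATS2, which phosphorylate YAP and TAZ and keep them in the cytoplasm, so their output is set largely by phosphorylation and localisation, which mRNA levels do not show. YAP and TAZ are active in cells spread on a stiff matrix and are known to drive growth and invasion genes in breast cancer, and several of their targets, such as LATS2 and AMOTL2, act back on them as inhibitors.

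The total behind the FPKM values, which are read counts scaled by gene length and by library, was 17078370 to 19277808 per library. Which reads it holds is not stated. Listed counts summed to more than this total in vehicle replicates 1 and 3 (17492638 against 17078370 in replicate 1). In the remaining libraries they summed to less (16836181 against 18394759 in TXX-1-10 replicate 2). This total served as library size without further scaling, so differences near 0 depend on it. With TMM scaling the median log2 fold change of all genes under TXX-1-10 was 0.05 instead of -0.02. A member held 917 to 30979 reads, so that counting error was at most 3.3% of a count. The lists end at different places and hold 4237 to 27615 genes. A gene missing from a list was treated as not measured and never as 0. Rimonabant replicate 1 and TXX-1-10 replicate 3 stood apart from the other libraries of their treatments: counts in them fell with gene length relative to their replicates (Spearman rho across genes -0.693 and -0.692, against -0.025 to 0.667 in the other 7), and chi-square per degree of freedom of their replicate pairs was 24.3 to 42.2, against 2.29 to 6.75 for pairs without them. Of the line's markers, VIM was at 224 to 329 FPKM and CD44 at 27.4 to 48.2, CDH1 had no read in the 4 libraries that list it, and ESR1 and PGR reached 0.0314 and 0.0459 FPKM in 4 libraries. ERBB2, which a triple-negative line carries without amplification, was at 7.0 to 9.52 FPKM in all 9 libraries, and the epithelial gene EPCAM was at 4.47 to 5.37 in 7. Of the markers of other cells that a dish could hold, COL1A1 reached 0.798 FPKM, PDGFRB 0.533 and PTPRC 0.0639. In bulk RNA, fewer cells of a kind and less RNA per cell cannot be told apart.

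Promoter sequence was searched to show where TEAD factors could read these genes, since TEAD factors recognise the letters GGAATG. The RefSeq promoter windows run from 250 bases before to 50 bases after a start site in GRCh38.p14. They covered 9 of the 10 members with 13 windows, several genes having more than 1 start. CYR61 had no window, so its promoter was not searched. Over all 35116 windows in the table, 14.0% held the TEAD motif on either strand, 1.37% held it at least 2 times and 0.128% at least 3 times. Counted by gene, 16.7% of 27305 held it in at least 1 window. The AP-1 motif TGANTCA, bound by a factor that often sits beside TEAD, was in 7.71% of windows, and none of its matches in the members overlapped a TEAD match. Positions are counted from the start site as base 1, with bases before it negative. The CTGF window held 3 TEAD matches, at -169 to -164, -104 to -99 and -95 to -90, all outside annotated exons. The ANKRD1 window held 2, at -220 to -215 and -128 to -123, and an AP-1 match at -195 to -189. The first of these ANKRD1 matches lies outside GENCODE exons, and the second lies in the untranslated start of its first exon as GENCODE release 29 draws the gene.

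The CTGF promoter (chr6:131951374-131951622, minus strand) and the ANKRD1 promoter (chr10:90921277-90921337, minus strand) are shown because these genes had more than 1 match and fell past 2-fold under TXX-1-10, with the TEAD motif in capitals and the rest in lower case. A further 30 bases (chr10:90921198-90921227, minus strand) surround the second ANKRD1 match.
CTGF promoter: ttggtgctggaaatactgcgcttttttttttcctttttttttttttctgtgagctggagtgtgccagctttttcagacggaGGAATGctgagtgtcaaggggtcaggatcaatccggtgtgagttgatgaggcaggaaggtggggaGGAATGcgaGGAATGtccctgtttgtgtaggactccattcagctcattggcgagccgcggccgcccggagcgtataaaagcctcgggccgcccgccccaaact
ANKRD1 promoter: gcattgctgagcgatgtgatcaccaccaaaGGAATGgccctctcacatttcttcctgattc
ANKRD1 second match: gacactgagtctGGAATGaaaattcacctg

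Single matches were found in 1 window each of AMOTL2, AXL, LATS2, AJUBA and YAP1, and no match in the windows of AMOTL1 and WWTR1. In AMOTL2, AXL and AJUBA the match belongs to a second start further along the gene, and the window of the first start held 0. The LATS2 match lies after the start site, at 10 to 15. The single matches are printed with 30 bases around each in the direction of transcription, so that CATTCC marks a match on the opposite strand. This sets members that changed little (LATS2, YAP1) beside members that fell (AMOTL2, AJUBA). The AMOTL2 stretch (chr3:134374499-134374528, minus strand) and the AJUBA stretch (chr14:22976884-22976913, minus strand) lie in noncoding exon sequence of their genes. The AXL stretch (chr19:41226531-41226560, plus strand) and the LATS2 stretch (chr13:21061560-21061589, minus strand) have their matches outside GENCODE exons of these genes. In the YAP1 stretch (chr11:102110273-102110302, plus strand) the match lies in an exon of the neighbouring gene AP001527.2.
AMOTL2: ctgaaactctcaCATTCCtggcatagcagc
AJUBA: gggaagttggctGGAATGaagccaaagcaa
AXL: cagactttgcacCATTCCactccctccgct
LATS2: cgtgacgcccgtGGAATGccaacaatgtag
YAP1: cgggagtgtgcaGGAATGtagcaacttgca
A match says only that these letters are in the window, and windows without one say nothing about binding elsewhere.

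**Figure D1:**
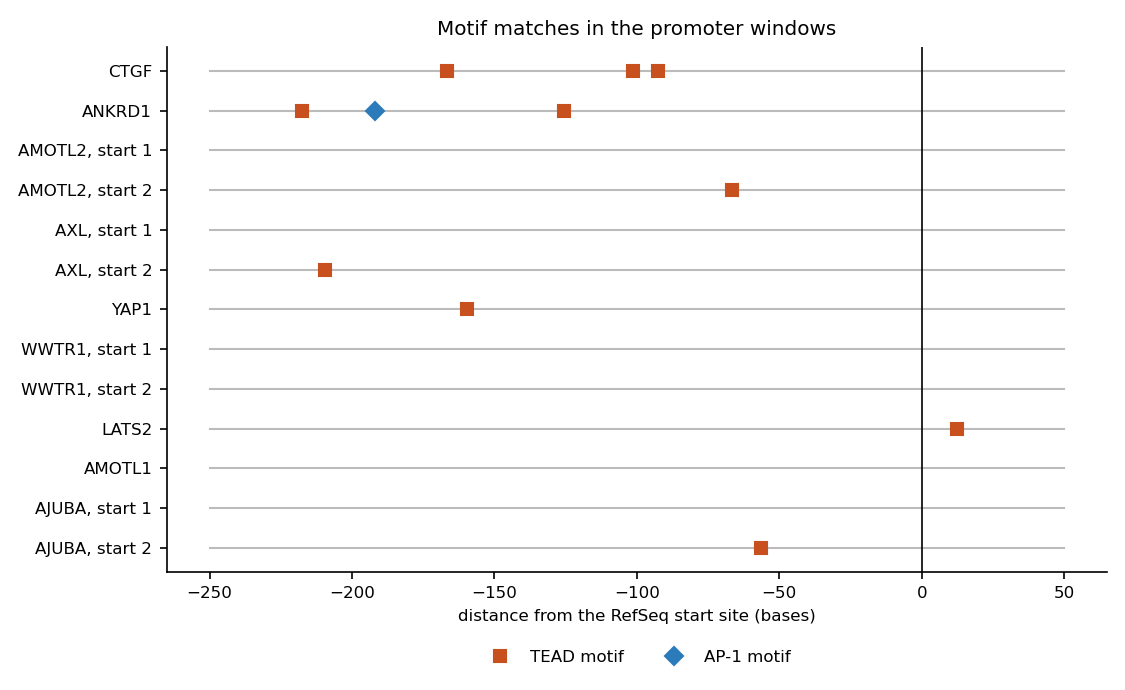
Positions of TEAD motif matches (squares) and AP-1 motif matches (diamond) along the promoter windows of the members, as distance in bases from each RefSeq start site (vertical line). CYR61 had no window and is not shown. CTGF has 3 TEAD matches and ANKRD1 has 2, and no other window has more than 1.

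Under TXX-1-10 all 10 members were lower than in vehicle-treated cells, and in each of them the 3 TXX-1-10 libraries lay below the 3 vehicle libraries. For comparison, 46.3% of the 4236 genes listed in all 9 libraries and with a mean of at least 1 FPKM lay lower without overlap in this comparison. Of the 10, 5 fell past 2-fold (CTGF, CYR61, AMOTL2, ANKRD1 and AJUBA), a change called lower for 7.66% of the 11688 genes tested with edgeR. The median log2 fold change was -0.91 for the members and -0.02 for all genes. Under rimonabant 0 of the 10 changed 2-fold, 6 lay below vehicle without overlap (31.5% of genes did) and 4 overlapped it, with a median of -0.16 against 0.01 for all genes. Lower calls under rimonabant made up 1.09% of genes tested. Both comparisons use the same 3 vehicle libraries, so they are not independent of each other.

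**Figure D2:**
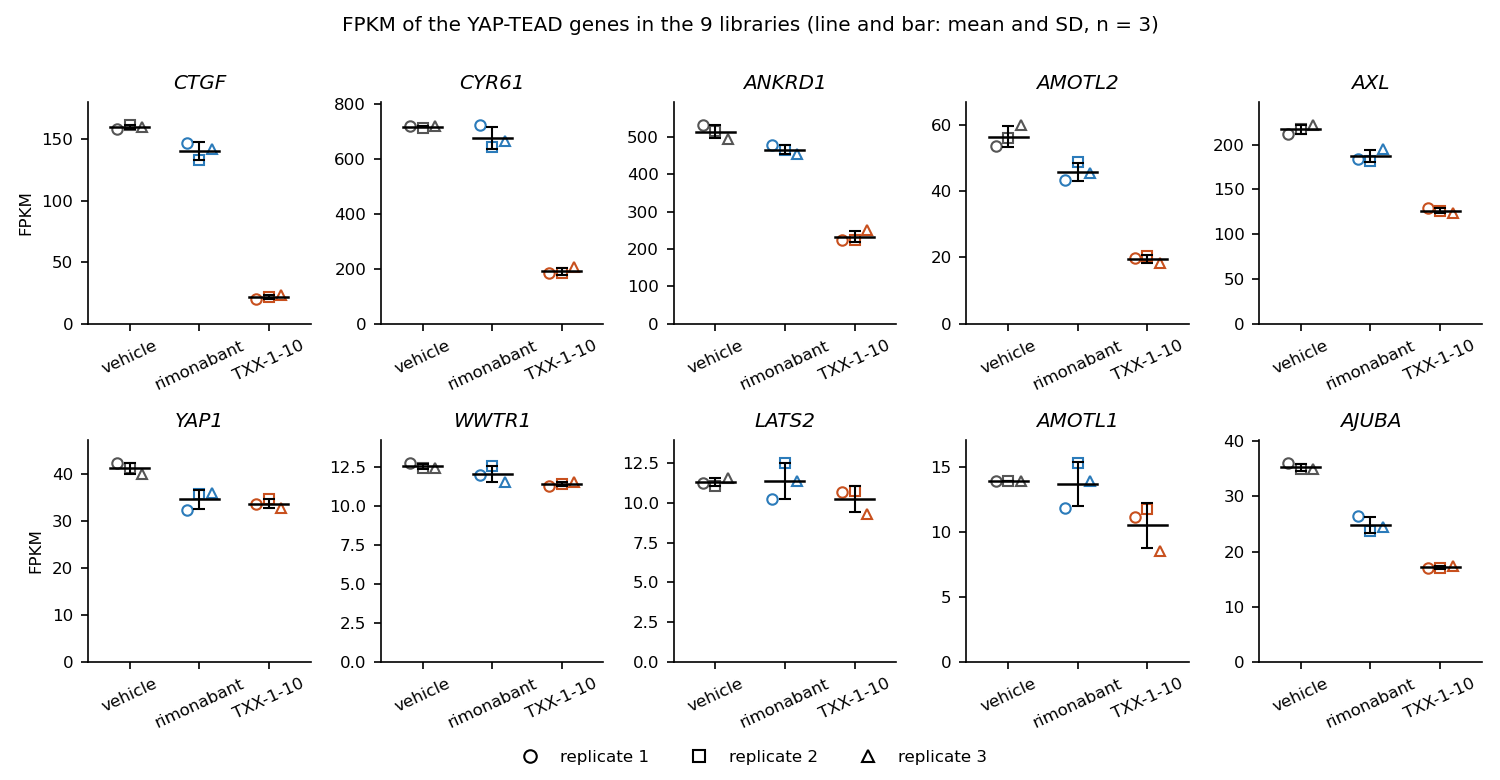
FPKM of the 10 members in each library, by treatment, with the symbol giving the replicate and the line and bar giving mean and SD (n = 3). The TXX-1-10 points lie below the vehicle points in every panel, from a mean of 21.9 against 159.8 FPKM in CTGF to 10.2 against 11.3 FPKM in LATS2.

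CTGF, a secreted matricellular protein that binds growth factors and integrins and is the most used reporter of YAP activity, moved the most among the members. The gene (ENSG00000118523, GRCh38 chr6:131948176-131951373, minus strand) was at 158, 161 and 159.8 FPKM in the vehicle libraries, 147, 133 and 142 in the rimonabant libraries, and 20.3, 21.96 and 23.3 in the TXX-1-10 libraries. The 3 treatments did not overlap, and TXX-1-10 stood far below the other two. The mean under TXX-1-10 was 13.7% of the vehicle mean, a log2 fold change of -2.87 (SE 0.06) or 7.30-fold lower. Under rimonabant it was 88.1% of vehicle, a log2 fold change of -0.18 (SE 0.06). In rank among the genes listed in all libraries CTGF went from place 186 by FPKM in vehicle to 205 under rimonabant and 1874 under TXX-1-10.

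CYR61 (ENSG00000142871, chr1:85580761-85583962, plus strand) encodes a close relative of CTGF that also binds integrins in the matrix. Its level was 719.5, 714 and 719.6 FPKM in vehicle, 722, 643 and 667 in rimonabant, and 184, 184 and 206 in TXX-1-10. Rimonabant replicate 1 lay above all vehicle libraries, so these groups overlapped, while all TXX-1-10 libraries lay far below both. The mean fell to 26.7% of vehicle under TXX-1-10 (log2 fold change -1.91, SE 0.07, 3.75-fold lower), and the difference under rimonabant was -0.08 (SE 0.07). CYR61 was the member with the highest level in vehicle, at place 30 of the genes listed in all libraries, and was at place 128 under TXX-1-10.

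ANKRD1 (ENSG00000148677, chr10:90912096-90921276, minus strand) encodes an ankyrin repeat protein of muscle and of stretched cells that shuttles to the nucleus. It was at 530.3, 517 and 495 FPKM in vehicle, 478, 465 and 454 in rimonabant, and 224, 224 and 250.2 in TXX-1-10. None of the 3 groups overlapped, and the rimonabant libraries sat just below vehicle. The TXX-1-10 mean was 45.3% of vehicle, with a log2 fold change of -1.14 (SE 0.06), and the rimonabant mean was 90.6% (-0.14, SE 0.06). With the trend of counts on gene length taken out of each library, the value for TXX-1-10 was -0.99, just short of 2-fold.

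AMOTL2 (ENSG00000114019, chr3:134355874-134375479, minus strand), an angiomotin family scaffold that binds YAP and holds it at junctions and actin, is both a target and an inhibitor of the pathway. Its FPKM was 53.5, 56.1 and 59.8 in vehicle, 43.4, 48.7 and 45.5 in rimonabant, and 19.9, 20.5 and 18.3 in TXX-1-10. The groups were separate and in the same order as for CTGF. TXX-1-10 lowered the mean to 34.6% of vehicle (log2 fold change -1.53, SE 0.07), and the rimonabant mean was 81.2% (-0.30, SE 0.07).

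AXL (ENSG00000167601, chr19:41219203-41261766, plus strand), a receptor tyrosine kinase of the TAM family that responds to GAS6 and is tied to invasion in breast cancer, fell less than the secreted targets. Vehicle libraries held 212, 217 and 221 FPKM, rimonabant libraries 184, 182 and 195, and TXX-1-10 libraries 129, 126 and 124. Again there was no overlap, and rimonabant lay between the others. The log2 fold change was -0.78 (SE 0.05) for TXX-1-10, the member nearest to 2-fold among those that did not reach it, and -0.21 (SE 0.05) for rimonabant. The antisense gene AC011510.1 shares exon sequence with AXL and held 41 to 64 reads in the 6 libraries that list it. Whether counting used strand is not given in the sources used here, so reads from overlapping genes cannot be told apart. CTGF, AMOTL1 and YAP1 also share exon sequence with antisense genes, which are listed in 0 libraries. AMOTL2 shares it with the pseudogene RPL39P5, on the same strand, which held 1 to 5 reads in 4 libraries.

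The coactivators themselves moved little beside their targets. YAP1 (ENSG00000137693, chr11:102110461-102233423, plus strand) was at 42.3, 41.4 and 40.0 FPKM in vehicle, 32.3, 35.7 and 35.9 in rimonabant, and 33.6, 34.7 and 32.8 in TXX-1-10. Both compounds lay below vehicle without overlap, and they overlapped each other. The mean was 84.0% of vehicle under rimonabant (log2 fold change -0.25, SE 0.05) and 81.8% under TXX-1-10 (-0.29, SE 0.05). The difference between the compounds was -0.04 (SE 0.05).

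WWTR1 (ENSG00000018408, chr3:149517235-149736714, minus strand), which encodes TAZ, was at 12.7, 12.5 and 12.5 FPKM in vehicle, 12, 12.6 and 11.6 in rimonabant, and 11.3, 11.4 and 11.6 in TXX-1-10. Rimonabant overlapped vehicle, and TXX-1-10 lay below it by a small step. The TXX-1-10 mean was 91.0% of vehicle (log2 fold change -0.14, SE 0.05), which was -0.04 with the size factors of DESeq2. Its antisense partner WWTR1-AS1 held 2 to 8 reads in 4 libraries.

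The regulators split into AJUBA, which fell, and LATS2 and AMOTL1, which differed little. AJUBA (ENSG00000129474, chr14:22971174-22982642, minus strand) encodes a LIM protein that binds LATS kinases and holds back their activity towards YAP. It was at 36.0, 34.9 and 34.9 FPKM in vehicle, 26.4, 23.6 and 24.4 in rimonabant, and 17.0, 17.0 and 17.4 in TXX-1-10. The groups did not overlap, and AJUBA was the member furthest below vehicle under rimonabant. The rimonabant mean was 70.4% of vehicle (log2 fold change -0.51, SE 0.05), and the TXX-1-10 mean was 48.6% (-1.04, SE 0.05). With DESeq2 and its size factors the TXX-1-10 value was -0.94, short of 2-fold. The protein-coding gene AL132780.3 shares exon sequence with AJUBA on the same strand and is listed in 0 libraries, so its reads are not known.

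LATS2 (ENSG00000150457, chr13:20973032-21061547, minus strand), the kinase that phosphorylates YAP and TAZ, was at 11.3, 11.0 and 11.6 FPKM in vehicle, 10.2, 12.5 and 11.4 in rimonabant, and 10.7, 10.8 and 9.29 in TXX-1-10. Rimonabant spanned the vehicle values on both sides, and TXX-1-10 lay just below them. The log2 fold change was -0.14 (SE 0.08) for TXX-1-10 and 0.01 (SE 0.08) for rimonabant. The lowest value of each compound came from the library that stood apart, and the TXX-1-10 value was -0.08 without both libraries and -0.04 with DESeq2.

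AMOTL1 (ENSG00000166025, chr11:94706431-94876753, plus strand), the other angiomotin relative, was at 13.9 FPKM in each vehicle library, 11.8, 15.2 and 13.9 in rimonabant, and 11.2, 11.8 and 8.54 in TXX-1-10. Rimonabant overlapped vehicle, and the lowest value in each compound was again that of the library that stood apart. AMOTL1 is the longest member, at 10035 bases of exon. The log2 fold change for TXX-1-10 was -0.41 (SE 0.12) with all libraries, -0.28 without both libraries, and -0.34 with the length trend removed. For rimonabant it was -0.03 (SE 0.12), and 0.07 without its replicate 1.

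The order of FPKM, which compares genes per length, changed under TXX-1-10 and was the same in vehicle and rimonabant. In vehicle the means ran from CYR61 at 717.8 FPKM through ANKRD1 at 514, AXL at 217, CTGF at 159.8, AMOTL2 at 56.4, YAP1 at 41.2 and AJUBA at 35.3 to AMOTL1 at 13.9, WWTR1 at 12.6 and LATS2 at 11.3. No neighbours in this order overlapped in vehicle. Under rimonabant AMOTL1, WWTR1 and LATS2 overlapped. Under TXX-1-10, ANKRD1 at 233 FPKM came above CYR61 at 191, and YAP1 at 33.7 came above CTGF at 21.9. CTGF then overlapped AMOTL2 at 19.6, and WWTR1, AMOTL1 and LATS2 overlapped their neighbours between 8.54 and 11.8 FPKM.

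Set directly against its parent, TXX-1-10 gave lower values for all 10 members (with TMM scaling YAP1 and WWTR1 turned to 0.05 and 0.01 on the log2 scale), 8 of them without overlap (38.8% of genes lay lower without overlap) and 4 past 2-fold, against 4.42% of genes called lower. The members' median log2 fold change was -0.55, and that of all genes -0.02. CTGF was 6.44-fold lower (log2 fold change -2.69, SE 0.06), CYR61 3.54-fold lower (-1.82, SE 0.07) and AMOTL2 2.34-fold lower (-1.23, SE 0.07). ANKRD1 stood on the threshold, at -1.001 (SE 0.06), and was at -0.85 with the length trend removed. AXL at -0.57 and AJUBA at -0.53 (SE 0.05 each) were lower without reaching 2-fold. YAP1 and LATS2 overlapped between the compounds. This was the only pair of compounds, and how they differ in dose is not known here.

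To see whether the members moved with the rest of the pathway, the other 16 genes of a published 22-gene YAP and TAZ target signature were read off the same fit. Of the 15 tested (RBMS3 was not), 6 were called lower under TXX-1-10 and 1 higher, where 7.66% and 6.72% of all genes were. At an edgeR adjusted p under 0.05 without a fold limit, 12 were lower and 2 higher, where 36.7% of all genes were lower and 33.8% higher. Their median log2 fold change was -0.79, beside -0.02 for all genes. Under rimonabant 2 were called lower (1.09% of all genes were), and the median was -0.41 beside 0.01. At the adjusted p alone 10 were lower and 1 higher under rimonabant, where 2259 and 2539 of all 11688 genes were. This list and the other pathway lists below were chosen with earlier results of these data known. The direction of their genes is therefore not independent evidence.

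TGFB2, a transforming growth factor beta ligand, moved most and did so under both compounds. It was at 17.9 to 19.3 FPKM in vehicle, 3.99 and 4.13 in the 2 rimonabant libraries that list it and 1.40 to 1.56 in TXX-1-10. Its log2 fold change was -3.63 (SE 0.07, edgeR adjusted p = 1.8e-11) for TXX-1-10 and -2.18 (SE 0.07, edgeR adjusted p = 1.52e-08) for rimonabant. CRIM1, a membrane protein that binds bone morphogenetic proteins, was also past 2-fold under both, at -2.16 and -1.20 (SE 0.07 each, edgeR adjusted p = 3.52e-09 and 3.01e-06), at 138 to 142 FPKM in vehicle, 54.8 to 66.0 in rimonabant and 29.4 to 32.7 in TXX-1-10.

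F3, the tissue factor that starts coagulation, was at 67.0 to 70.9 FPKM in vehicle, 41.3 to 43.8 in rimonabant and 11.2 to 12.4 in TXX-1-10. It fell under TXX-1-10 (log2 fold change -2.54, SE 0.05, edgeR adjusted p = 2.56e-10) and, short of 2-fold, under rimonabant (-0.71, SE 0.05, edgeR adjusted p = 7.89e-06). The matrix protein gene CCDC80 had values of -1.87 and -0.41 (SE 0.04 or 0.05, edgeR adjusted p = 4.32e-10 and 6.04e-05). NUAK2, an AMPK-related kinase, was low throughout, at 1.84 and 2.70 FPKM in vehicle and 0.286 to 0.427 in TXX-1-10, and fell by 2.70 on the log2 scale (SE 0.22, edgeR adjusted p = 7.38e-07, 7 libraries). It met the filter of a mean of 1 FPKM only through its vehicle libraries, with means of 1.33 in rimonabant and 0.348 in TXX-1-10. Its place among the 6 lower calls therefore depends on the group where it was high.

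The 2 remaining calls of the signature under TXX-1-10 lie outside the naming rule and were chosen after their values were seen. FJX1 fell (log2 fold change -1.32, SE 0.07, edgeR adjusted p = 1.22e-07). GADD45A, a growth arrest and DNA damage gene, rose from 65.2 FPKM in vehicle to 154 in TXX-1-10 (log2 fold change 1.24, SE 0.09, edgeR adjusted p = 6.68e-07). Between the compounds F3, CCDC80, NUAK2 and TGFB2 were called lower under TXX-1-10, with differences of -1.83, -1.46, -1.93 and -1.45. These were 4 of the 15 tested, with 0 called higher, where 4.42% of all genes were called lower. The median log2 fold change of the list in this comparison was -0.41, beside -0.02 for all genes. MYOF, also chosen after its values were seen, was lower than vehicle by similar amounts under both (-0.77 and -0.73), with a difference of -0.03 (95% interval -0.30 to 0.23).

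Among the TEAD factors and their VGLL cofactors, 6 were tested under TXX-1-10 (VGLL1 and VGLL2 were not), of which 2 were called lower and 0 higher, beside 7.66% and 6.72% of all genes. At the adjusted p alone 3 were lower and 3 higher, where 36.7% and 33.8% of all genes were. TEAD1, a DNA-binding partner of YAP, was at 42.8 to 46.4 FPKM in vehicle, 26.5 to 36.5 in rimonabant and 15.1 to 20.8 in TXX-1-10, so that no groups overlapped. Its log2 fold change under TXX-1-10 was -1.26 (SE 0.13, edgeR adjusted p = 1.3e-05), and -1.14 without TXX-1-10 replicate 3, which held its lowest value. VGLL3, which competes with YAP for TEAD, was at -1.10 (SE 0.10, edgeR adjusted p = 1.01e-06) and, without that library, at -0.99, short of the call. TEAD3 and VGLL4, chosen after their values were seen, were higher than vehicle under TXX-1-10 without reaching 2-fold (0.74 and 0.65, edgeR adjusted p = 1.54e-06 and 5.42e-06).

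Under rimonabant edgeR called 0 of these 6 genes, as did DESeq2 and limma, where edgeR called 2.33% of all genes. An unadjusted p under 0.05 was held by 5 of them and by 49.2% of all genes. VGLL3 was at -0.71 (SE 0.11, edgeR adjusted p = 0.000396) and TEAD1 at -0.47 (SE 0.13, edgeR adjusted p = 0.0171). Between the compounds 0 were called by any of the 3 tools (edgeR called 7.28% of all genes), and all 6 had an unadjusted p under 0.05, as did 61.2% of all genes.

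Of the Hippo kinases and upstream regulators, 31 were tested (AMOT and DCHS1 were not). Under TXX-1-10, 10 were higher and 12 lower at the adjusted p, shares close to the 33.8% and 36.7% of all genes, and the median log2 fold change was -0.13. With edgeR 2 were called, FAT4 and FAT1, both lower, where 14.4% of all genes were called. DESeq2 called the kinase gene MAP4K4 higher as well, which is named after its values were seen and was at 0.90 with edgeR (SE 0.09, edgeR adjusted p = 5.94e-06). FAT4 and FAT1 encode giant cadherins that signal into the pathway from the cell surface. FAT4 was at 4.05 to 4.46 FPKM in vehicle, 2.06 and 2.56 in 2 rimonabant libraries and 0.754 to 1.02 in TXX-1-10 (log2 fold change -2.20, SE 0.11, edgeR adjusted p = 5.68e-09). FAT1 was at 26.7 to 27.4, 12.8 to 22.4 and 5.80 to 10.1 FPKM in the same order (-1.68, SE 0.22, edgeR adjusted p = 7.35e-05), and its value without TXX-1-10 replicate 3 was -1.46.

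For the Hippo genes under rimonabant edgeR, DESeq2 and limma each called 0 of 31, beside 2.33% of all genes with edgeR. An unadjusted p under 0.05 was held by 14 of the 31, beside 49.2% of all genes. FAT4 had the largest difference (-0.86, SE 0.11, edgeR adjusted p = 0.000115), and STK3, the gene of the kinase MST2, was next (0.65, SE 0.09, edgeR adjusted p = 0.000144). STK3 was also higher than vehicle under TXX-1-10 (0.49, SE 0.08, edgeR adjusted p = 0.000144), and the compounds differed by -0.16 (95% interval -0.34 to 0.03). LATS1, the partner of LATS2, was chosen after its values were seen and was at 0.29 (SE 0.08, edgeR adjusted p = 0.00551) under TXX-1-10. Between the compounds edgeR called FAT4 and FAT1, at -1.34 and -1.07, while limma called 0 genes of the list. These 2 are 6.45% of the 31 tested, a share close to the 7.28% of all genes that edgeR called. FAT1 was not called with TMM or DESeq2, nor without TXX-1-10 replicate 3 (-0.86) or rimonabant replicate 2, and FAT4 lay under the FPKM limit of 5.

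**Figure D3:**
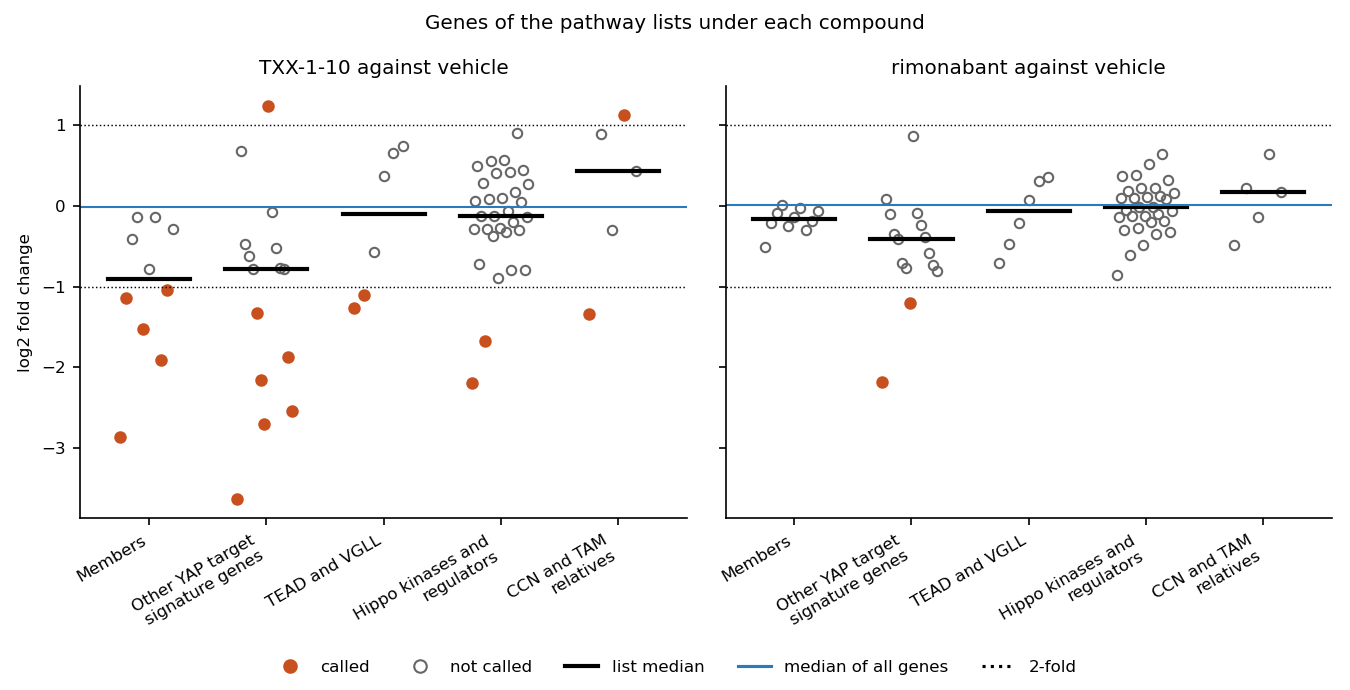
Log2 fold change (vertical axis) of each tested gene of the members and of the 4 other pathway lists, for TXX-1-10 (left) and rimonabant (right) against vehicle, with called genes filled, list medians as black bars, the median of all genes as a blue line and 2-fold as dotted lines. The members and the other signature genes have medians of -0.91 and -0.79 under TXX-1-10, and the Hippo genes a median of -0.13.

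Relatives of CTGF, CYR61 and AXL were read next. Of 5 tested CCN and TAM relatives (WISP1, WISP2 and WISP3 were not), 2 were called under TXX-1-10, beside 14.4% of all genes. GAS6, the ligand of AXL, fell from 33.5 FPKM in vehicle to 13.2 (log2 fold change -1.35, SE 0.09, edgeR adjusted p = 2.79e-07), and was at 23.9 FPKM in rimonabant. NOV, a CCN family protein (CCN3), rose from 6.78 to 7.29 FPKM in vehicle to 14.9 to 15.7 (1.13, SE 0.07, edgeR adjusted p = 2.22e-08), opposite in sign to CTGF and CYR61. PROS1, another TAM receptor ligand, was at 14.3, 22.3 and 26.5 FPKM in vehicle, rimonabant and TXX-1-10, with log2 fold changes of 0.64 for rimonabant (SE 0.04, edgeR adjusted p = 4.48e-06) and 0.89 for TXX-1-10 (SE 0.04, edgeR adjusted p = 2.83e-08).

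For these relatives under rimonabant edgeR, DESeq2 and limma called 0 of 5, where edgeR called 2.33% of all genes. An unadjusted p under 0.05 was held by 4 of them, beside 49.2% of all genes. GAS6 was at -0.49 (SE 0.08, edgeR adjusted p = 0.00126). Between the compounds edgeR called 0, limma 0 and DESeq2 1, where edgeR called 7.28% of all genes. All 5 were at an unadjusted p under 0.05, beside 61.2% of all genes. NOV stood at 0.96 and GAS6 at -0.86 there.

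Across the 9 libraries, the patterns most like CTGF among 4235 genes, by Pearson r of log2(FPKM + 1), were those of MYBL2, a cell cycle transcription factor, KIFC1, a mitotic kinesin, and CYR61, each with r = 0.999. MYBL2 had means of 57.9, 54.6 and 15.3 FPKM in vehicle, rimonabant and TXX-1-10, and KIFC1 of 37.4, 35.2 and 10.3. For CYR61 they were MYBL2, the mitochondrial gene MT-ND4 and CTGF. YAP1 was closest to ACSL3 (r = 0.991), HPS3 (0.982) and ZC3H14 (0.980). The 9 points share 3 treatments, so r near 1 describes genes with the same step between treatments and comes without a p.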

How the data were processed

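The authors deposited 1 table per library, with a read count for each gene, not normalized, beside its FPKM. The deposited FPKM scales that count by the length of the gene and by the size of the library, a total that was recovered from both columns and used as library size. The submitters' processing notes name HISAT2 2.0.5 and featureCounts 1.5.0-p3, while the study's methods state oligo(dT) selection and uniquely mapped exonic reads. Gene coordinates equal those of GENCODE release 29 (GRCh38). The members and the gene lists were chosen with earlier results of these data known, partly taken over from an earlier analysis of the same files.

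Counts were fitted with edgeR 4.0.16 (glmQLFit, glmQLFTest) in R 4.3.3. Each gene was tested in the largest set of libraries that lists it (at least 2 per treatment), with a mean FPKM of at least 1 and Benjamini-Hochberg adjustment over all 11688 genes tested. A call needed a change of 1 or more on the log2 scale, in either direction, at an adjusted p under 0.05. The SE is the fold change over the root of the F statistic and is approximate, and FPKM means have SDs over 3 libraries. The fit was tested on simulated data. Nothing in the labels says that the libraries of a treatment came from separate cultures, so p-values measure only the spread between these samples. The counting intervals behind depth cover counting error only.

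Besides the members, the text names the called genes of each list (at most 5 per comparison), the 2 largest where none was called, and the 3 genes most like CTGF, CYR61 and YAP1. Exceptions are said to be so. Alternatives were TMM, DESeq2 1.42.0, limma 3.58.1 on log2(FPKM + 1), FPKM filters of none and 5, a lowess trend on gene length (span 0.3), the replicate number as a block, 8 libraries for every gene, and each library left out. Leaving out both libraries that stood apart was added after seeing the data. Promoters are RefSeq windows of GRCh38.p14. Protein sequences were not used here. Plots were drawn with matplotlib 3.10.9, and tables made with pandas 2.3.3 and scipy 1.17.1 in Python 3.11.15.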

Additional observations from a re-analysis of the deposited data

How the results depend on the processing

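No member changed the sign of its TXX-1-10 difference from vehicle under any of the 18 alternatives, and CTGF stayed between -2.92 and -2.72. The members past 2-fold under TXX-1-10 were 5, 4 with TMM or DESeq2 and 3 with the length trend removed. They were 5 without both libraries that stood apart. Signs turned only for members within 0.1 of 0 on the log2 scale: AMOTL1 and LATS2 under rimonabant, and YAP1 and WWTR1 between the compounds.

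Calls over all genes were 1681 for TXX-1-10, 272 for rimonabant and 851 between the compounds. They were 960, 119 and 488 with a mean FPKM of at least 5, and 1077, 108 and 515 with limma. With 8 libraries for every gene they were 1187, 140 and 601, and with no FPKM filter 2040, 385 and 1038. With each library left out they were 1678 to 1734, 268 to 312 and 847 to 891. Signature calls under TXX-1-10 were 6 rather than 7 with the FPKM limit of 5, with 8 libraries for every gene and without vehicle replicate 3. They were 8 with no FPKM filter. Between the compounds they were 3 rather than 4 with the FPKM limit of 5, with limma and without vehicle replicate 3. They were 5 without rimonabant replicate 1. Hippo calls under TXX-1-10 were 1 rather than 2 with the FPKM limit of 5 and 3 with DESeq2, and between the compounds 1 with TMM, DESeq2 or that limit, 0 with limma, and 1 to 2 with a library left out (1 without rimonabant replicate 2 or TXX-1-10 replicate 3). Under rimonabant they were 0 to 1 with a library left out (1 without rimonabant replicate 2). TEAD and VGLL calls under TXX-1-10 were 1 rather than 2 with the FPKM limit of 5, with limma and without both libraries that stood apart, and 1 to 2 with a library left out. CCN and TAM calls between the compounds were 1 rather than 0 with TMM, DESeq2 or the length trend removed. The cause of these shifts was not tested, though the FPKM limit and the 8 libraries test fewer genes, and no filter tests more.

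Of the other named genes, 13 values missed the adjusted p under an alternative, 10 of them FAT1 under rimonabant, and 1 passed it. No pairing of the samples by replicate number was seen, and whether same-numbered libraries share a culture or batch is not known. Deviations of same-numbered libraries correlated at -0.07 to 0.04 between vehicle and a compound. Between the compounds they correlated at -0.79 to 0.83, where the libraries that stood apart carry the numbers 1 and 3. Of 18 library comparisons 4 were best with the same number. With the replicate block, calls were 1696, 303 and 867, and 5, 0 and 4 members were past 2-fold. Genes listed in fewer than 2 libraries of a treatment, or with a mean FPKM under 1, were not tested.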
